A study of Homo sapiens with 3 samples.

Results

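TIA1 is an RNA-binding protein whose control of alternative splicing has been worked out largely on a small set of transcripts. The 6 genes described here, NF1, PPP1R12A, FGFR2, SMN1, SMN2 and FAS, belong to that set and were chosen by name, each by its hg19 span and strand. Crosslinked RNA was mapped by eCLIP in HEK293T, an established human embryonic kidney line carrying the SV40 large T antigen. The method crosslinks protein and RNA by ultraviolet light, pulls TIA1 down with an antibody and sequences the RNA that comes with it. A size-matched input, taken before the pull-down, gives the background. There were 2 TIA1 immunoprecipitation libraries and 1 input library, all from untreated cells with no named genotype change, crosslinked at 600 mJ. A cluster is an interval in which the authors' caller found piled reads in a single replicate. The 6 genes held 87 of 103134 clusters in replicate 1, 53 of 66222 clusters in replicate 2 and 0 of the 2253 peaks that the authors listed as reproducible. The labels conflict in places. The antibody is entered as anti-TIA1 in one field and, under an identical catalogue number, as Msi1 in the treatment protocol. The replicates are called both technical and biological, and the line is written both HEK293 and HEK293T. Whether the spread between replicates is technical or biological is thus unknown.

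TIA1 binds U-rich RNA. When such a stretch lies in an intron just after a weak 5′ splice site, bound TIA1 helps the U1 small nuclear ribonucleoprotein to hold that site, and the exon before it is then included more often. TIA1 also binds U-rich 3′ untranslated regions, where it is known for translational silencing and for its place in stress granules. In NF1, PPP1R12A, FGFR2, SMN2 and FAS the known effect of TIA1 is on inclusion of particular alternative exons, so the position of clusters relative to alternative exons is given with its values.

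Each cluster carries the authors' own log2 fold over input, scaled for library size, and −log10 p-value. From these the reads were recovered, with library totals of 2683407 reads in replicate 1, 1997817 in replicate 2 and 2851338 in the input. Clusters are shallow: among those recovered uniquely, the median over a whole list was 4 reads in each replicate. The recovery took the most common log2 fold as 3 reads over an input number of 1. It allowed no cluster fewer than 3 reads, so a floor of 3 is an assumption here and not a finding. The input number of a cluster is at least 1, and a 1 may stand for 0 or 1 read. A cluster with the lowest input number needed 13 reads in replicate 1 or 10 reads in replicate 2 to pass a log2 fold of 3 and a −log10 p-value of 3, the cut-offs that define an enriched cluster here. Intervals beside values are exact 95% intervals and cover counting error only. Those of folds take the input number as a read count. They thus cover neither the doubt about a 1 nor the choice of clusters by their piled reads.

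Clusters were found mainly in NF1, which encodes neurofibromin, a GTPase-activating protein that turns RAS off. NF1 (chr17:29421945-29704695, plus strand) held 57 clusters in replicate 1 and 28 in replicate 2. PPP1R12A (chr12:80167343-80329235, minus strand), encoding the targeting subunit of myosin phosphatase, held 13 and 19. FGFR2 (chr10:123237844-123357972, minus strand), a fibroblast growth factor receptor, held 16 and 5. SMN1 and SMN2, the near-identical copies that encode the survival motor neuron protein, held 1 cluster between them in each replicate, and FAS, a death receptor of the tumor necrosis factor receptor family, held 0. The order of the first 3 genes thus depended on the replicate, with NF1 highest in both and PPP1R12A and FGFR2 changing places. No cluster lay on the opposite strand of any of the 6 genes.

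Scaled for depth, NF1 clusters held 95.0 reads per 1000000 library reads in replicate 1 (83.7 to 107) and 58.1 in replicate 2 (48.0 to 69.6). PPP1R12A clusters held 22.7 (17.4 to 29.2) and 41.0 (32.6 to 50.9), and FGFR2 clusters 25.7 (20.0 to 32.5) and 10.0 (6.11 to 15.5). In each of these genes the counting intervals of the replicates did not overlap, and the direction was not shared: replicate 2 was lower in NF1 and FGFR2 and higher in PPP1R12A. These sums hold only listed clusters, taken to hold at least 3 reads, and scaling for depth does not remove that floor. Replicate 1 is the deeper library, and there 25 of 57 NF1 clusters and 7 of 16 FGFR2 clusters held exactly 3 reads. How far the floor bears on the gap between the replicates was not tested. NF1 is also the longest, and per 10 kb it had 2.02 and 0.99 clusters, beside 0.803 and 1.17 in PPP1R12A and 1.33 and 0.416 in FGFR2. Clusters covered little of the genes, 0.446% of their summed length in replicate 1 and 0.232% in replicate 2. Fewer reads in a gene cannot be told apart from less of its RNA, since the total RNA of each gene was not measured here.

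**Figure D1:**
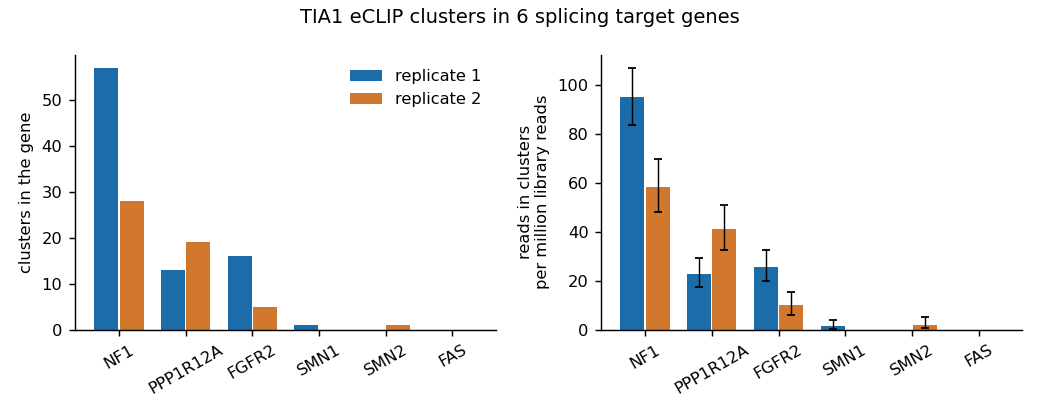
Clusters in each of the 6 genes (left, number) and reads in those clusters per 1000000 library reads (right, with exact 95% counting intervals as bars), for replicate 1 in blue and replicate 2 in orange. NF1 leads in both replicates, PPP1R12A and FGFR2 change places, SMN1 and SMN2 have 1 cluster each in 1 replicate, and FAS has 0.

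Nearly all clusters lay above the input, 86 of 87 in replicate 1 and 53 of 53 in replicate 2, beside 94.3% and 96.0% over the whole lists. This was largely set by the listing if, as the recovery assumed, no listed cluster held under 3 reads. An input number of 1 stood behind 63 of the 87 and 43 of the 53. At that number 3 reads already give a log2 fold of 1.67 in replicate 1 and 2.10 in replicate 2. Summed over all clusters of the 6 genes, the log2 fold was 1.68 in replicate 1 (1.39 to 1.98; 389 reads against an input of 129) and 2.26 in replicate 2 (1.86 to 2.68; 222 against 66). The mean was 1.97 ± 0.41 (SD, n = 2), and the same sum over each whole list gave 1.80 and 2.01. By gene, NF1 had summed log2 folds of 1.66 (1.3 to 2.03) and 2.37 (1.80 to 2.98). PPP1R12A had 1.70 (0.95 to 2.50) and 2.12 (1.47 to 2.80), and FGFR2 had 1.80 (1.08 to 2.58) and 2.25 (0.88 to 3.86). The intervals of the 3 genes overlap within each replicate, so a difference in fold between them was not resolved. Only listed clusters enter these sums, so the assumed floor of 3 reads enters them too, and they do not describe a whole gene.

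Enriched clusters were few, in these genes as in the whole lists. In replicate 1 there was 1 enriched cluster among 87 (1.15%), in NF1, where 3.09% of all listed clusters of that replicate were enriched. In replicate 2 there was 1 among 53 (1.89%), in PPP1R12A, beside 5.32% of all listed clusters. Clusters with enough reads to pass at the lowest input number were 1 of 87 in replicate 1 (1.15%), beside 7.99% of the listed clusters whose reads were recovered uniquely. In replicate 2 they were 1 of 53 (1.89%), beside 10.6%. Both shares lay under those of the whole lists, as did the shares enriched, and no test of either was made. Each rests on a count of 1, too small to tell these genes from the lists. The cluster with enough reads was the enriched one in each replicate. At a laxer −log10 p-value of 1.3 and a fold of 3, 6 of 87 clusters passed in replicate 1, beside 6.95% of that list. By gene these were 4 in NF1, 1 in PPP1R12A and 1 in FGFR2. In replicate 2, 7 of 53 passed (NF1 5, PPP1R12A 2), beside 13.1%. That cut-off was added after the values were seen. With a log2 fold of 1 and a −log10 p-value of 3 the calls were the same 1 and 1, beside 4.14% and 6.36% of the lists. With 4 and 5 they were 0 and 0, beside 0.886% and 1.51%.

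Exon positions were placed by distance. No annotation of hg19 was used here, so exons of GENCODE release 29 in GRCh38 were placed by their distance from the gene's start, in NF1, PPP1R12A and FGFR2, whose spans have equal length in both builds. This assumes that no lengths differ inside the gene, and it was chosen after the clusters were seen. An exon's length and its distance to a cluster are therefore given, with no exon coordinates.

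The enriched NF1 cluster lay just after the alternative exon that TIA1 is known to act on, a 63 nt exon within the RAS-GAP domain of neurofibromin. It is the only difference between an annotated transcript of 12425 nt and another of 12362 nt. Its sequence is shown because the strongest site of the 6 genes in replicate 1 follows it, and it is printed from the GENCODE transcript with its last 3 bases, the exon side of the 5′ splice site, in capitals. The exon itself is low in T (the letter for U here), at 14.3% of its bases, with no run of T longer than 2.
NF1 63 nt exon: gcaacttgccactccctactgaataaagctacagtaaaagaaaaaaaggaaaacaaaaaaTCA
The exon ends in TCA, where CAG is the common sequence at this place.

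In replicate 1 the cluster after this exon spanned chr17:29580042-29580134, from 24 to 116 nt beyond the exon. It held 19 reads against an input number of 1, with a log2 fold of 4.34 (1.68 to 9.71) and a −log10 p-value of 4.88. In replicate 2 the same stretch held separate shallow clusters. The nearer, at 27 to 35 nt beyond the exon (chr17:29580045-29580053), had 3 reads and a log2 fold of 2.10 (−1.54 to 7.81). The farther, at 80 to 108 nt (chr17:29580098-29580126), had 4 reads and a log2 fold of 2.51 (−0.82 to 8.14). Both replicates thus listed clusters in the same window, with fewer reads in replicate 2 than in replicate 1, and enrichment passed the cut-offs in replicate 1 alone. The replicate 2 clusters, with −log10 p-values of 0.50 and 0.78 and intervals that include 0, were not separated from the input. The difference between the replicates was not tested, and their intervals overlap.

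Other NF1 exons had clusters in the same place. After a 158 nt exon, which a short annotated transcript extends into a terminal exon, replicate 1 had chr17:29509705-29509753 with 12 reads and a log2 fold of 3.67 (0.92 to 9.09). Replicate 2 had chr17:29509712-29509748 there with 9 reads and a log2 fold of 3.68 (0.83 to 9.14). In the counts by zone this site is taken as exonic because of that transcript. It was the most even of the strong NF1 sites, starting 22 and 29 nt beyond the exon in the respective replicates. A 111 nt exon was followed by chr17:29592376-29592422 in replicate 1, with 9 reads and a log2 fold of 3.26 (0.41 to 8.71). In replicate 2 chr17:29592350-29592414, also with 9 reads, was at 3.68 (0.83 to 9.14). That cluster began within the last bases of the exon and ended 57 nt beyond it. These were the NF1 sites with both folds above 3, and neither replicate passed the −log10 p-value of 3 at them, with 2.86 and 2.67 at the former and 2.02 and 2.67 at the latter.

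Weaker pairs followed a 98 nt exon and a 441 nt exon of NF1. After the 98 nt exon the clusters chr17:29586152-29586209 and chr17:29586164-29586188 held 9 and 4 reads, with log2 folds of 3.26 and 2.51 in replicates 1 and 2. After the 441 nt exon, chr17:29556507-29556537 and chr17:29556508-29556537 held 6 and 3 reads, with log2 folds of 2.67 and 2.10. In all, 10 of 57 NF1 exon ends had a cluster reaching into the next 100 nt in replicate 1 and 5 in replicate 2, and the 5 of replicate 2 were all among the 10. The 4 NF1 clusters with the most reads in replicate 1 all lay in such a window, whereas 2 of the top 4 did in replicate 2.

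The 3′ end of NF1 also held clusters in both replicates. The last exon, 3665 nt long, held 4 clusters with 22 reads in replicate 1 and 3 with 18 reads in replicate 2. At chr17:29702054-29702092 replicate 1 had 7 reads and a log2 fold of 2.89 (−0.07 to 8.39). Replicate 2 had 9 reads at chr17:29702057-29702109 and a log2 fold of 3.68 (0.83 to 9.14). A second pair, chr17:29701382-29701412 and chr17:29701378-29701415, had 4 and 6 reads with log2 folds of 2.09 and 3.10. At both pairs replicate 2 had the higher fold, the opposite of the site after the 63 nt exon.

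**Figure D2:**
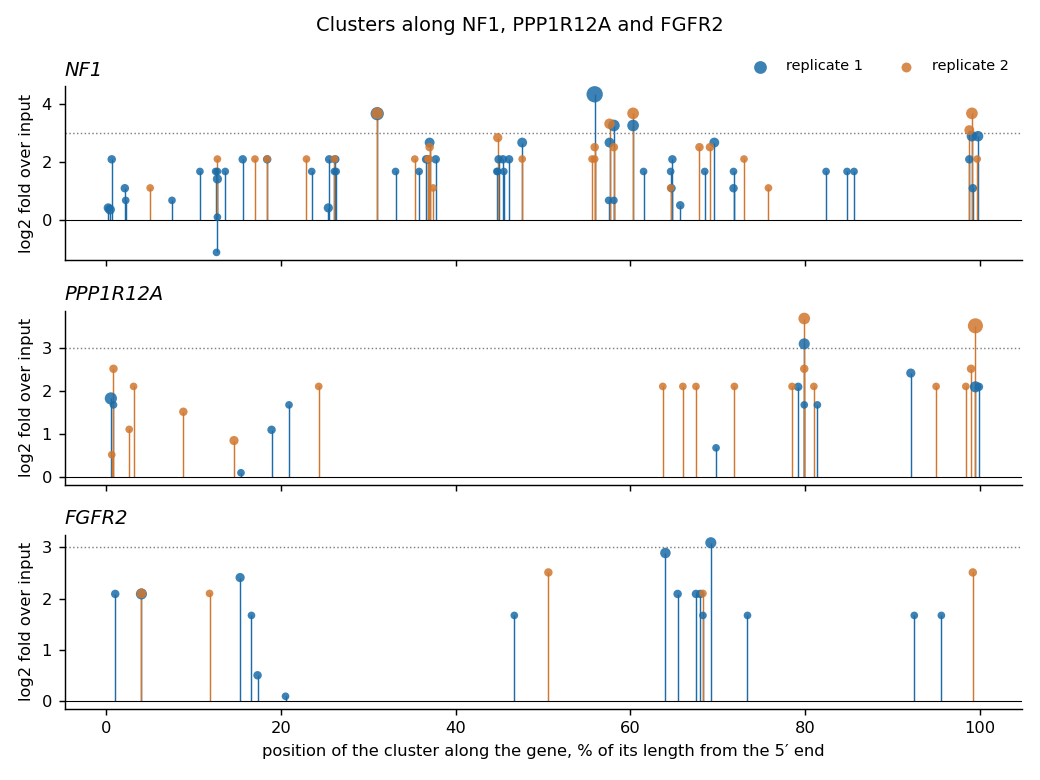
Log2 fold over input (vertical axis) of every cluster of NF1, PPP1R12A and FGFR2 against its position in percent of the gene's length from the 5′ end, with replicate 1 in blue, replicate 2 in orange and marker area growing with reads; the dotted line marks a log2 fold of 3. The tallest NF1 marker, at 4.34, is the cluster after the 63 nt exon, and PPP1R12A clusters of both replicates stand together at its 168 nt exon and near its 3′ end.

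PPP1R12A, whose alternative exons change the central part and the end of the myosin phosphatase targeting subunit, had its strongest sites after such an exon and in its last exon. The exons followed by clusters are printed from the GENCODE transcript PPP1R12A-201, because clusters lay just after them, with the last 3 bases in capitals as above. They are not put forward as known TIA1 targets. The exon for which TIA proteins are known in this gene, a small one near its 3′ end, was not analysed here. Of the 168 nt exon 23.8% of bases are T and of the 105 nt exon 21.9%, and the longest run of T is 3 in each.
PPP1R12A 168 nt exon: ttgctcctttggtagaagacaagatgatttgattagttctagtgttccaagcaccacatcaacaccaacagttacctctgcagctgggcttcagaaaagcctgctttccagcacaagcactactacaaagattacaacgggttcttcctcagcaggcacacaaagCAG
PPP1R12A 105 nt exon: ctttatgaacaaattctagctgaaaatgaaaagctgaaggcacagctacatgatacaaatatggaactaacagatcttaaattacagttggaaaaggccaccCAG
Both end in CAG, unlike the 63 nt exon of NF1.

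After the 168 nt exon each replicate had a pair of clusters at nearly the same distances. The nearer was chr12:80199899-80199920 in replicate 1, with 3 reads, a log2 fold of 1.67 and 26 to 47 nt beyond the exon. In replicate 2 it was chr12:80199889-80199921, with 4 reads, a log2 fold of 2.51 and 25 to 57 nt beyond. The farther was chr12:80199849-80199878 in replicate 1, 68 to 97 nt beyond the exon, with 8 reads and a log2 fold of 3.09 (0.19 to 8.56). In replicate 2 the farther was chr12:80199841-80199876, 70 to 105 nt beyond, with 9 reads and 3.68 (0.83 to 9.14). The farther cluster, with a mean log2 fold of 3.39 ± 0.42 (SD, n = 2), was the one PPP1R12A site above 3 in both replicates, with −log10 p-values of 1.74 and 2.67. After the printed 105 nt exon, replicate 1 had chr12:80180092-80180125, with 5 reads and a log2 fold of 2.41, 29 to 62 nt beyond. Replicate 2 listed no cluster there, its nearest lying 4647 nt downstream. A different 105 nt exon, not alternative in the annotation, had chr12:80200962-80200986 in replicate 1, with 4 reads, 20 to 44 nt beyond.

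The enriched PPP1R12A cluster was in the last exon (2453 nt), at chr12:80168094-80168161, 751 nt before the gene's end. It held 16 reads in replicate 2 against an input number of 2, with a log2 fold of 3.51 (1.42 to 6.68) and a −log10 p-value of 4.40. The overlapping cluster of replicate 1, chr12:80168088-80168136, held 8 reads against the same input number, with a log2 fold of 2.09 (−0.24 to 5.36) and a −log10 p-value of 1.23. A cluster near the 5′ end, chr12:80328321-80328385, had more reads in replicate 1 (10) but an input number of 3, and its log2 fold was 1.82. Reads alone thus did not rank the PPP1R12A clusters as the fold did.

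FGFR2 uses one of a pair of mutually exclusive exons, IIIb or IIIc, which set which growth factors the receptor binds; TIA1 is known to favour the upstream exon, IIIb. In these libraries no cluster followed the upstream exon (148 nt) within 1000 nt. The nearest cluster beyond it was 1334 nt away in replicate 1 and 2259 nt away in replicate 2. The downstream exon (145 nt) had more near it: in replicate 1 chr10:123276827-123276862, with 4 reads and a log2 fold of 2.09, overlapped its last 30 nt, and 2 further clusters lay wholly within 1000 nt beyond it. In replicate 2 there was 1 within that distance, chr10:123275914-123275937, with 3 reads and a log2 fold of 2.10, overlapping a cluster of replicate 1 (chr10:123275895-123275921, 3 reads, 1.67). Which of the exons these cells used was not measured here.

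The highest FGFR2 fold was at chr10:123274862-123274925 in replicate 1, with 8 reads and a log2 fold of 3.09 (0.19 to 8.56), ending 29 nt before an exon. Replicate 2 listed no cluster at that place. Among FGFR2 sites listed in both replicates, the one with the most reads lay 25 and 27 nt after an exon of up to 259 nt near the 5′ end. There, chr10:123353155-123353198 held 8 reads in replicate 1 and chr10:123353161-123353196 held 6 in replicate 2, each against an input number of 2, with log2 folds of 2.09 and 2.10. Both intervals at this site include 0 (−0.24 to 5.36 and −0.39 to 5.44), so its excess over input was not resolved at this depth. FGFR2 was the gene with the fewest shared sites of the 3, with 2 of 16 clusters in replicate 1 overlapping 2 of 5 in replicate 2.

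SMN1 (chr5:70220768-70248839, plus strand) and SMN2 (chr5:69345350-69373422, plus strand) each had a single cluster in a single replicate. SMN2 differs from SMN1 in how often a 54 nt exon is included, and TIA1 is known to promote its inclusion in SMN2 from the intron that follows. In replicate 2 the SMN2 cluster, chr5:69372487-69372518, held 4 reads against an input number of 1, with a log2 fold of 2.51 (−0.82 to 8.14) and a −log10 p-value of 0.78. By distance it lay in that intron, 86 to 117 nt beyond the exon measured from the gene's start, or 83 to 114 nt measured from its end, since the SMN2 span differs by 3 nt between builds. In replicate 1 the SMN1 cluster, chr5:70248495-70248534, held 4 reads against an input number of 2, with a log2 fold of 1.09 (−1.72 to 4.55). It lay in the last exon (574 nt), 344 to 305 nt before the gene's end. Neither cluster was separated from the input at this depth.

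Reads of the SMN copies are hard to assign. An annotated transcript of each copy that includes the 54 nt exon, 1536 nt long in both, differs at 2 positions (99.87% identity). The later of these is 338 nt before the transcript's end, a distance that falls within the SMN1 cluster. Over the 353 nt after the 54 nt exon that the annotated transcripts allow to be compared, the copies differ at 2 positions, 100 and 215 nt beyond the exon, and the former falls within the SMN2 cluster. How reads that map to both copies were treated is not given in the sources used here, and the clusters are called SMN1 or SMN2 by listed position only.

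FAS (chr10:90750288-90775542, plus strand) had no cluster in either replicate. Its known TIA1-dependent exon is 63 nt long, and TIA1 acts from the intron after it. The nearest cluster on the same strand outside the gene was 698 kb away in replicate 1 and 686 kb away in replicate 2. The lists hold only intervals that the caller kept, taken here to hold at least 3 reads, so an unlisted gene may still have had reads. No upper limit can be set from them, and binding to FAS was not detectable in these lists rather than absent.

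In NF1, PPP1R12A and FGFR2 together, clusters lay just after exons more densely than elsewhere in the genes. The 100 nt windows after exons make up 1.82% of the 3 spans and held the midpoints of 16 of 86 clusters in replicate 1 (18.6%) and 11 of 52 in replicate 2 (21.2%). That was 15.5 and 10.7 clusters per 10 kb, beside 1.12 and 0.638 in the rest of the introns. The windows of the same size before exons, 1.80% of the spans, held 2 and 0 clusters. Exons, 4.77% of the spans, held 10 and 8. Per 10 kb, the order of after exons, exons and the rest of the introns was the same in both replicates. No test was made of it, since the windows were chosen after the values were seen and clusters of 1 gene share its RNA.

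The clusters in the windows after exons held 25.2% of the immunoprecipitated reads of the clusters in the 3 genes in replicate 1 and 23.4% in replicate 2. The summed log2 fold in the windows was 2.37 and 2.60, beside 1.33 and 1.91 in the rest of the introns. It was also high in exons, at 2.34 and 2.95. The input number is known only where a cluster was listed and is never under 1, so how the input itself was spread over the genes cannot be read from it.

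Clusters that reached into a window began at a median of 26 nt beyond the exon in replicate 1 (20 clusters) and 27 nt in replicate 2 (12 clusters). By gene, the windows held 8 and 5 cluster midpoints in NF1, 4 and 5 in PPP1R12A, and 4 and 1 in FGFR2. Of 109 exon ends in the 3 genes, 19 had such a cluster in replicate 1 and 10 in replicate 2. At 7 exon ends both replicates had one, 5 in NF1, 1 in PPP1R12A and 1 in FGFR2. The NF1 63 nt exon and the PPP1R12A 168 nt exon were the alternative exons among these 7, and the other 5 are exons that were not skipped or replaced in another annotated coding transcript. Over all 109 exon ends 12 were alternative by this annotation rule, 8 of them in FGFR2. The FGFR2 ends include that of a 6 nt exon and both ends annotated for an exon of 197 or 203 nt. Of the 12, 5 had such a cluster in replicate 1, 2 in replicate 2 and 2 in both.

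**Figure D3:**
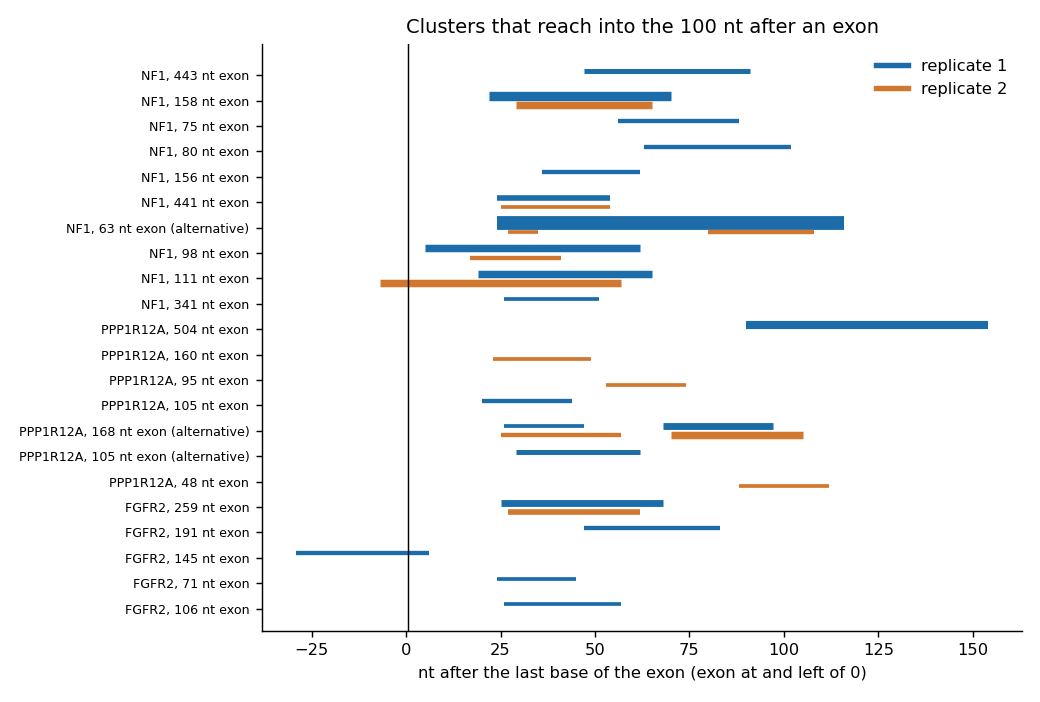
Clusters that reach into the 100 nt after an exon, drawn as bars by their distance in nt from the exon's last base (horizontal axis; the vertical line is the exon's end), in gene order, with replicate 1 in blue, replicate 2 in orange and bar height growing with reads. The thickest bar, 19 reads at 24 to 116 nt, follows the NF1 63 nt exon, and bars of both replicates stand at 7 exons. Alternative exons are marked as such in NF1 and PPP1R12A but not in FGFR2.

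Of the 87 clusters in replicate 1, 20 overlapped a cluster of the other replicate (23.0%). In replicate 2, 21 of 53 did (39.6%), where over the whole lists 28.9% and 45.0% overlapped. The share by gene in replicate 2 was 53.6% in NF1 (15 of 28), 21.1% in PPP1R12A (4 of 19) and 40.0% in FGFR2 (2 of 5). In replicate 1 it was 24.6%, 30.8% and 12.5%. Over the 21 overlapping pairs log2 folds had medians of 2.09 (replicate 1) and 2.51 (replicate 2), with a median absolute difference of 0.60. Replicate 2 was higher in 16 of the 21, and the whole lists had medians of 1.67 and 2.10. Equal reads over an equal input number give a fold 0.43 higher in replicate 2, through library scaling alone. The 16 are thus not all sites with more reads in replicate 2. All 21 pairs had the same input number in both replicates, as both are set against 1 input, so the folds of a pair are not independent.

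Only 3 pairs had a log2 fold of at least 3 in both replicates, and the same 3 had intervals above 0 in both. They were the site after the 158 nt exon of NF1, the site at the end of its 111 nt exon and the farther site after the 168 nt exon of PPP1R12A. The highest −log10 p-value reached by both replicates of a pair was 2.67, and at 0 of the 21 pairs did both replicates hold enough reads to pass the cut-offs. The authors' rule for the reproducible list is not known here, and why none of its 2253 peaks lay in these genes was not tested. The nearest reproducible peak on the same strand outside each gene was 875 kb away for SMN2 and 983 kb for NF1, and farther for the other 4, up to 3700 kb for PPP1R12A.

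**Figure D4:**
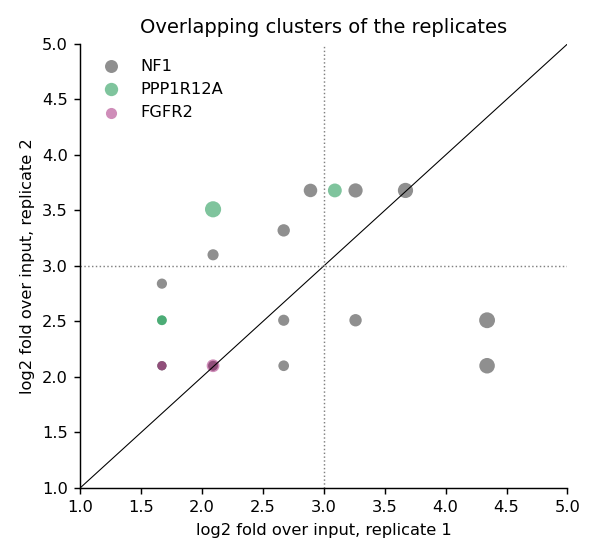
Log2 fold over input in replicate 1 (horizontal axis) and replicate 2 (vertical axis) at the 21 overlapping pairs of clusters, coloured by gene, with marker area growing with reads, some markers lying on top of one another, a solid line of equality and dotted lines at a log2 fold of 3. The area above and to the right of both dotted lines holds 3 pairs, while the NF1 cluster after the 63 nt exon sits at 4.34 in replicate 1 and below 3 in replicate 2.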

How the data were processed

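The tools named in the submitters' processing notes are STAR 2.4.0i, SAMtools 1.4.1 and cutadapt in versions 1.14 and 1.9.1, with hg19 as the build. The cluster caller is not given in the sources used here. Both kinds of value are the authors'. The deposited lists hold the authors' −log10 p-value and log2 fold over input per interval, for each replicate and for 1 joint list of reproducible peaks. The lists have no header, and the units were read from the values. The input entered only through those values.

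Reads were recovered in Python 3.11.15 with scipy 1.17.1 from the steps of the log2 fold and the −log10 p-value (Fisher's exact test at an observed or expected number under 5, otherwise Yates' chi-square), within 2.5e-05. Library totals were taken at multiple 3 of the smallest whole totals, the best of multiples up to 6. Reads were unique for 89.6% of clusters in replicate 1 and 96.0% in replicate 2. Of the clusters in the 6 genes, 4 in replicate 1 were not unique and took the smallest value. On simulated clusters only the inversion was tested. These were built with the same test formula, library totals and floor of 3 reads, so they cannot check those assumptions.

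A cluster belonged to a gene by at least 1 nt of overlap on its strand. Named clusters were those enriched, overlapping between replicates, highest in a gene, or nearest an alternative exon, and others were named after their values were seen. Exons came from GENCODE coding basic transcripts, and TIA1, TIAL1 and further genes of the pathway were not analysed here, for want of an annotation of the files' build. Intron sequence at the clusters was not used here for the same reason. The genes and lists were chosen with earlier results of these data known.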

Additional observations from a re-analysis of the deposited data

How the results depend on the processing

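The values below are means of the replicates. The 6 genes held 70 clusters, 16 when at least 5 reads were asked for. Enriched clusters numbered 1, or 0 at a log2 fold of 4 and a −log10 p-value of 5, and 6.5 at 3 and 1.3. The summed log2 fold of 1.97 became 2.46 with an input number of 1 taken as 0.5, so the unknown reads behind a 1 bear on its size. It was 1.19 in clusters with an input number above 1, which are chosen by the fold's denominator. On the opposite strand there were 0 clusters, 0 enriched clusters and 0 overlaps, so no summed fold could be had there. The windows after exons held 13.5 clusters and those before exons 1. With either replicate left out, clusters ranged from 53 to 87, enriched clusters stayed at 1, the summed fold ranged from 1.68 to 2.26 and clusters after exons from 11 to 16. The other 15 settings kept their values within the limits used, and none reversed. Those limits were wide: clusters after exons were 9 with windows of 50 nt and 15 with windows of 200 nt. Clusters overlapping the other replicate fell from 20.5 to 15 when a reciprocal overlap of at least 50% was asked for. With 50 nt windows the enriched NF1 cluster, at 4.34, counted in the rest of the introns. The windows around exons, the exon set and the laxer p-value were added after seeing the data. No paired analysis was possible because the input is 1 library without a replicate number, known only through the fold values, and the results come from no test. Exon distances rest on equal gene lengths in 2 builds, and most clusters hold 3 or 4 reads, so single sites and differences between replicates are loosely set.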

Other observations

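In the introns more than 100 nt from an exon, 9 of the 21 overlapping pairs were found, 7 of them in NF1. The strongest, at chr17:29584826-29584879 in replicate 1 and chr17:29584825-29584863 in replicate 2, held 6 and 7 reads with log2 folds of 2.67 and 3.32, and their midpoints lay 510 and 518 nt before the next exon. Another NF1 pair, at chr17:29526586-29526642 and chr17:29526592-29526627, held 6 and 4 reads with log2 folds of 2.67 and 2.51, with midpoints 826 and 831 nt before the next exon. The single NF1 cluster below the input, chr17:29457523-29457554 in replicate 1, had a log2 fold of −1.13. Its reads were not recovered uniquely, and the smallest numbers that give this fold are 3 reads against an input number of 7. These intronic pairs were chosen for description after their values were seen.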
